A study of Bos taurus with 32 samples.

Results

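This section describes 27 genes that were read at like levels in 4 organs of dairy calves and that differed in opposite directions between embryo origins: higher in the adrenal and lower in the hypothalamus of calves from embryos produced in vitro (IVP). The 27 were found among 27607 Ensembl gene IDs, chosen by their adrenal and hypothalamic levels in CPM (a gene's count per 1000000 counts of its library's column total). Of all IDs, 11576 had a mean of at least 2 CPM in each of the 4 tissues, and 9492 of these, called broadly read below, had a highest tissue mean under 5 times the lowest. In 1020 of the broadly read genes all 4 IVP adrenals lay above all 4 adrenals of MOET calves, and in 180 all 4 IVP hypothalami lay below all 4 MOET hypothalami. Both conditions held for 27 genes, fewer than the limit of 200 in the rule.

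The tested calves were 4 IVP Holstein bull calves (3208, 3209 and 5833, 103 days old, and 5841, 98 days old). They were set against 4 Holstein bull calves conceived in the donor by artificial insemination after superovulation and moved to recipients as embryos (MOET: 3213, 144 days old, 3217 and 3218, 102 days old, and 5932, 104 days old). Each calf gave 1 poly(A) RNA library each of hypothalamus, pituitary, testicle and adrenal, 32 libraries in all, with totals of 17357283 to 23380330 counts. All calves were carried by recipients, so the groups differ in how the embryo was made and also in age, through calf 3213.

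The hypothalamus and the pituitary gland govern the gonads and the adrenal glands through hormones, and steroids from the adrenal and the testicle act back on the brain. Embryos made in vitro pass their first days in culture medium instead of the oviduct, a period in which epigenetic marks are reset. Genes read at like levels in unlike organs often serve functions shared by many cell types. The count table gives Ensembl IDs alone and the reference table used here pairs 0 of them with a symbol, so the functions of the 27 genes, lists of pathway genes and markers of each tissue's cell types are not given. Genes are therefore numbered 1 to 27 in the order of the rule, which ranks them by the smaller absolute log2 ratio of the adrenal and the hypothalamus, and 4 are named by ID. These 4 were picked after their values were seen: the first by the rule (member 1, ENSBTAG00000051076), the one with the most counts (member 25, ENSBTAG00000043560), and the members with the smallest p in each direction in the pituitary (member 22, ENSBTAG00000047874, and member 18, ENSBTAG00000001996).

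In 5 of the 32 libraries the counts lay on the geometric mean of the other 3 libraries of the same group, closer than counting error allows. These were the libraries of MOET calf 3213 in each of the 4 tissues and the adrenal of IVP calf 5833. Over the 10110 to 11356 genes with at least 100 counts in each of the other 3 libraries, and after removal of a constant factor, their median absolute log2 distance from that mean was 0.0043 to 0.0116. Counting error alone would give 0.0415 to 0.0448, and the other 27 libraries lay at 0.0634 to 0.449. For the 27 genes themselves, 23 to 27 lay within 0.1 log2 of that mean in these 5 libraries. The labels call these libraries separate calves, but their counts add no spread of their own, so each mean ± SD below leaves them out, with n = 3 MOET calves in each tissue and n = 3 IVP calves in the adrenal; values that use all 8 libraries of a tissue are named as such. How the values of these 5 libraries came about was not tested. Without them the rule returned the same 27 genes, with 0 lost and 0 gained; a value between the lowest and the highest of its group leaves the gap to the other group as it is. Tests are given with all libraries and without these. Over the whole table, edgeR's quasi-likelihood test (Benjamini-Hochberg adjusted p under 0.05) called 39.3% of genes in the adrenal with 8 libraries and 0.0128% without calves 3213 and 5833, and in the hypothalamus 0.056% with 8 libraries and 0.00614% without calf 3213. In the adrenal all 27 members passed with 8 libraries and 0 without the 2 calves, and in the hypothalamus 0 passed in either fit; the rule used both contrasts, so nothing is read from these counts.

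In the adrenal the 27 genes averaged 1.13 to 2.91 times the MOET level in IVP calves, with log2 ratios of 0.18 to 1.54 and a median of 0.59. In the hypothalamus their log2 ratios of IVP over MOET were -1.25 to -0.22, with a median of -0.56. With all 8 libraries they were 0.18 to 1.53 in the adrenal and -1.24 to -0.23 in the hypothalamus, with the same medians to 2 decimals. These are the values that chose the genes, so they are a description with no test, and the share of broadly read genes that passed each condition, 10.7% in the adrenal and 1.9% in the hypothalamus, is background only. Over all broadly read genes the median log2 ratio was -0.16 in the adrenal and 0.15 in the hypothalamus, opposite in sign to that of the 27 genes in both. With TMM scaling, which sets libraries on a common scale through the bulk of their genes, and all 8 libraries, these medians were 0.03 and -0.01, and those of the 27 genes were 0.79 and -0.74. In bulk tissue, more cells of a type and more RNA per cell cannot be told apart.

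**Figure D1:**
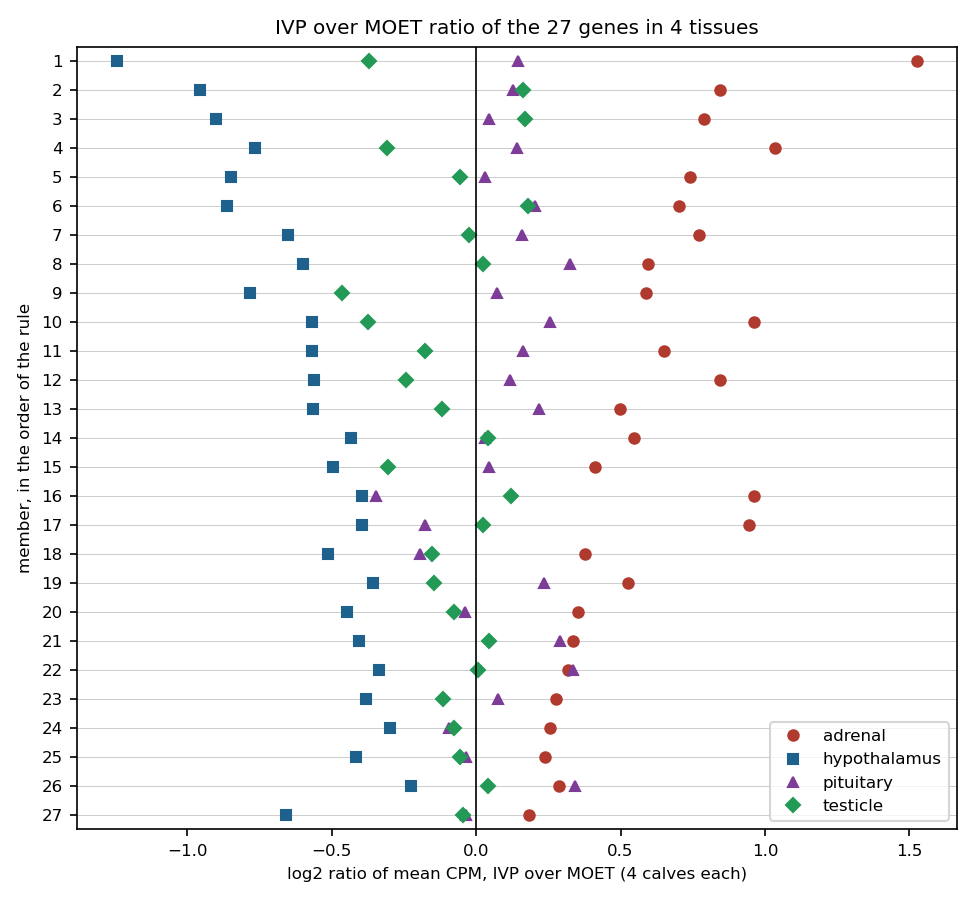
Log2 ratio of mean CPM, IVP over MOET, for each of the 27 genes (rows, in the order of the rule) in the adrenal (circles), hypothalamus (squares), pituitary (triangles) and testicle (diamonds), from 4 libraries per origin and tissue. All 27 circles lie right of 0 and all 27 squares left of it, as the rule requires, while the triangles and diamonds lie on both sides.

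ENSBTAG00000051076 (member 1) had the largest ratios in both tissues. Its adrenal level was 7.56, 26.9, 13.0 and 9.85 CPM in IVP calves 3208, 3209, 5833 and 5841, against 4.67, 5.37, 4.70 and 5.16 CPM in MOET calves 3213, 3217, 3218 and 5932. The IVP adrenals were spread widely, with calf 3209 far above the rest, while the MOET adrenals were close together. Its hypothalamic level was 4.66, 3.01, 3.39 and 2.70 CPM in the IVP calves and 7.98, 5.84, 12.1 and 6.59 CPM in the MOET calves, in the same order of animals. Here the widest value was that of MOET calf 3218. Means were 14.8 ± 10.6 CPM in IVP and 5.07 ± 0.341 CPM in MOET adrenals (SD, n = 3 each), and 3.44 ± 0.861 CPM in IVP (SD, n = 4) and 8.19 ± 3.44 CPM in MOET hypothalami (SD, n = 3).

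ENSBTAG00000043560 (member 25) took more counts than any other of the 27. In the adrenal it had 19470, 16799, 19199 and 19780 CPM in IVP calves, against 16130, 16321, 16030 and 15381 CPM in MOET calves. Its groups were separated by a narrow margin, and IVP calf 3209 was the lowest of the IVP adrenals, which held for no other member. In the hypothalamus it had 19534, 20074, 16767 and 19970 CPM in IVP calves and 25690, 24548, 27391 and 24298 CPM in MOET calves. These are reads, not molecules per gene: gene lengths are not used here, so levels are compared between libraries and tissues but not between genes.

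ENSBTAG00000047874 (member 22) had 145, 199, 168 and 160 CPM in IVP adrenals and 136, 129, 139 and 136 CPM in MOET adrenals. In the hypothalamus it had 68.1, 63.9, 68.5 and 64.6 CPM in IVP calves and 84.3, 77.5, 101 and 72.2 CPM in MOET calves. The margin between the groups was small in both tissues, and the calves farthest out were again IVP 3209 in the adrenal and MOET 3218 in the hypothalamus. ENSBTAG00000001996 (member 18) had 170, 269, 214 and 197 CPM in IVP and 164, 169, 155 and 167 CPM in MOET adrenals, and 79.5, 111, 84.5 and 89.8 CPM in IVP and 130, 116, 159 and 114 CPM in MOET hypothalami. It passed the adrenal condition by 0.0091 on the log2 scale, one of the 3 narrowest margins among the members.

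In member 2, as in member 1, calf 3209 had the highest and calf 3208 the lowest of the IVP adrenals. It had 196, 434, 262 and 269 CPM in IVP adrenals and 159, 170, 154 and 164 CPM in MOET adrenals, and 48.2, 52.1, 38.6 and 42.5 CPM in IVP hypothalami and 87.4, 74.5, 128 and 61.6 CPM in MOET hypothalami. Unlike in member 1, the hypothalamus of calf 3209 was the highest of the IVP calves, and still below all MOET calves.

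Members 3 and 14, both among the genes with the most counts, were more even between IVP adrenals than members 1 and 2. Member 3 had 6279, 8452, 7121 and 7031 CPM in IVP adrenals and 4206, 4742, 4183 and 3594 CPM in MOET adrenals. In the hypothalamus it had 5703, 4580, 3834 and 4737 CPM in IVP calves and 8805, 7259, 10961 and 8156 CPM in MOET calves. As a ratio of the nearest libraries, the gap between the origins was wider than for member 25 in both tissues. Member 14 had 7305, 8220, 7781 and 7727 CPM in IVP and 5370, 5640, 5175 and 5078 CPM in MOET adrenals, with all IVP calves well above all MOET calves. In the hypothalamus its groups came closer, with 4782, 5369, 4108 and 4846 CPM in IVP and 6484, 6111, 7766 and 5451 CPM in MOET calves.

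Member 27, last by the rule, had its weight in the hypothalamus. There it had 48.1, 54.1, 58.5 and 40.9 CPM in IVP and 79.8, 78.6, 92.2 and 67.9 CPM in MOET calves. In the adrenal it had 34.8, 43.1, 39.4 and 37.6 CPM in IVP and 34.4, 34.7, 34.0 and 33.2 CPM in MOET calves, so IVP calf 3208 lay barely above the highest MOET calf, 3217.

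Membership at the edge turned on small differences. The margin, the gap between the nearest libraries of both origins in the tissue where it was smaller, was 0.0067 for member 27, 0.0071 for member 24 and 0.0091 for member 18 on the log2 scale. The 3 broadly read genes nearest outside had gaps of -0.00047, -0.0035 and -0.0042, where a negative gap is an overlap, all in the adrenal; in the hypothalamus they met the condition. Scaled by TMM factors instead of column totals, the rule returned 106 genes, which held 24 of the 27 and 82 others.

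The same library stood highest for nearly every gene. In the adrenal, IVP calf 3209 was the highest of the 4 IVP calves for 26 of the 27 genes and IVP calf 3208 the lowest for 26, against 35.4% and 32.2% of broadly read genes. Member 25 was the exception on the high side, with the highest value in calf 5841. In the hypothalamus, MOET calf 3218 was the highest of the MOET calves for 26 of 27, against 27.2% of broadly read genes. Member 16, highest in MOET calf 3217, was the exception. The rule chose the genes by these libraries, so the counts are a description and the shares are background only. The adrenal of calf 5833 and the hypothalamus of calf 3213 lie on the mean of their groups. They could hardly be extreme, and were highest for 3.65% and 0.643% of broadly read genes.

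**Figure D2:**
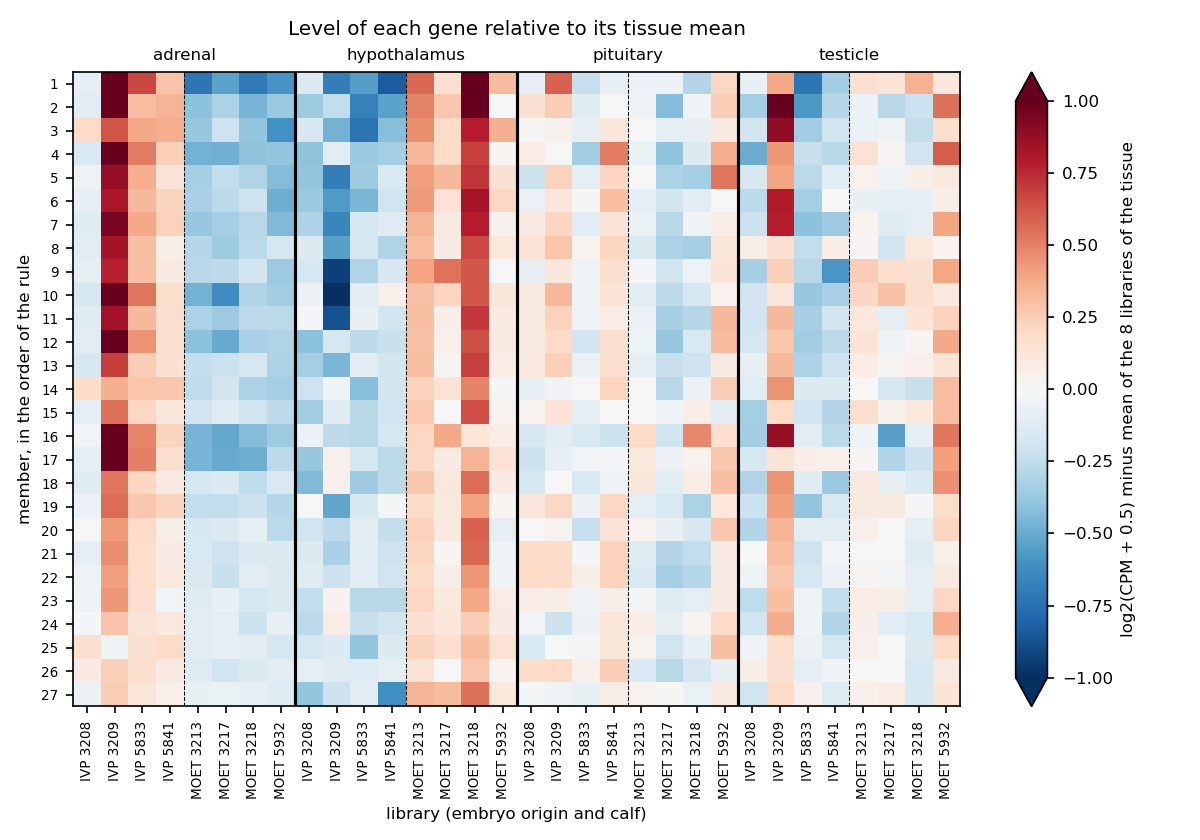
Log2(CPM + 0.5) of each of the 27 genes (rows, in the order of the rule) in each of the 32 libraries (columns, by tissue, IVP left of MOET), as the difference from the gene's mean over the 8 libraries of that tissue. The IVP column of calf 3209 is the reddest of its group for 26 genes in the adrenal and 27 in the testicle, and the MOET column of calf 3218 for 26 in the hypothalamus; colours are cut off at 1 and -1.

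The mean over the 27 genes of log2(CPM + 0.5) was 6.39, 7.15, 6.74 and 6.60 in IVP adrenals 3208, 3209, 5833 and 5841, against 6.14 to 6.17 in the 4 MOET adrenals. The IVP adrenals spanned 0.76, from 3208 to 3209, and the MOET adrenals hardly differed. In the hypothalamus the pattern was turned round: the 4 IVP calves had 5.70 to 5.82, close together, and MOET calves 3213, 3217, 3218 and 5932 had 6.35, 6.20, 6.64 and 6.13. This mean hides members that moved in opposite directions in IVP hypothalami, such as members 10 and 11, which were lowest in calf 3209, and members 18 and 23, which were highest in it. Per gene, the median coefficient of variation was 30.8% in IVP adrenals (n = 3) and 5.28% in MOET adrenals (n = 3), and over broadly read genes 14.9% and 7.08%. In the hypothalamus it was 12.3% in IVP (n = 4) and 22.0% in MOET calves (n = 3), and over broadly read genes 13.4% and 14.6%. The rule used these libraries, so these values only describe the chosen genes.

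**Figure D3:**
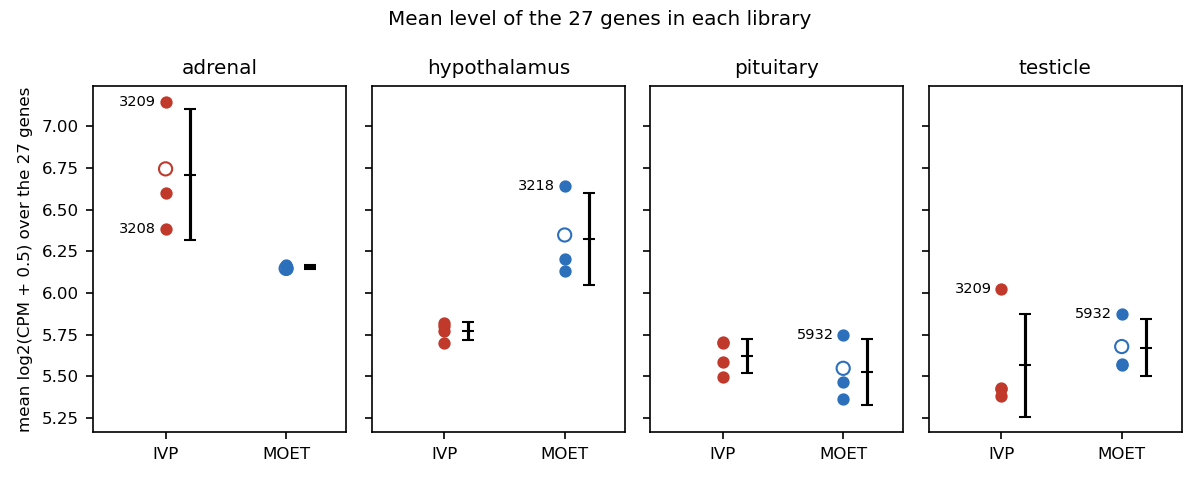
Mean of log2(CPM + 0.5) over the 27 genes in each library (points), by tissue and origin, with mean and SD bars over the filled points. Open points are the 5 libraries that lie on the geometric mean of the others of their group and are left out of the bars, and the 4 MOET adrenals (6.14 to 6.17) fall almost on 1 point.

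Single calves moved the size of these ratios. With all other libraries of the tissue kept, and without IVP calf 3209, the median adrenal log2 ratio of the 27 genes was 0.41, and without MOET calf 3218 the median in the hypothalamus was -0.41; all 27 stayed above 0 in the adrenal and below 0 in the hypothalamus in both cases.

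Summed, the 27 genes took 3.49%, 3.67%, 3.65% and 3.67% of all counts in IVP adrenals (3208, 3209, 5833 and 5841) and 2.73%, 2.83%, 2.70% and 2.57% in MOET adrenals (3213, 3217, 3218 and 5932). In the hypothalamus they took 3.11%, 3.10%, 2.58% and 3.07% in IVP and 4.26%, 3.93%, 4.81% and 3.93% in MOET calves. That the sums did not overlap follows from the choice of the genes. Members 3, 14 and 25, each above 1000 CPM in all 4 tissues, made up most of these sums. The other 24 genes together had 2417 ± 752 CPM in IVP and 1627 ± 9.81 CPM in MOET adrenals (SD, n = 3 each), and 1095 ± 48.3 CPM in IVP (SD, n = 4) and 1586 ± 346 CPM in MOET hypothalami (SD, n = 3).

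The share of counts held by the 100 most counted genes was higher in the origin with the higher levels in the adrenal and the hypothalamus, the tissues the rule used. By group means this was not so in the pituitary or the testicle. In the adrenal it was 29.9% to 30.8% for IVP calves and 24.9% to 27.4% for MOET calves. In the hypothalamus it was 25.7% to 29.3% for IVP calves and 30.6% to 34.1% for MOET calves, highest in MOET calf 3218. Counted without the 27 genes it was 26.5% to 27.4% in IVP adrenals, 22.5% to 24.8% in MOET adrenals, 23.3% to 26.3% in IVP hypothalami and 26.8% to 29.5% in MOET hypothalami. In the pituitary the share with all genes was highest, 50.3%, in MOET calf 3218, whose mean log2 level of the 27 genes was 5.46. It was 38.1% in MOET calf 5932 and IVP calf 5841, which had the highest means, 5.75 and 5.70. In the testicle the share was 26.7 ± 2.88% in IVP (SD, n = 4) and 25.7 ± 2.87% in MOET calves (SD, n = 3). The mean log2 levels there were 5.57 and 5.67. The part of this share in the levels of the 27 genes was not tested. The adrenal of IVP calf 5833 also had the lowest mean log2 level of 101 adrenal-enriched genes, 3.21 against 4.03 to 4.41 in the other adrenals. It had 25 genes at 0 counts that had at least 100 counts in each other IVP adrenal. The adrenal of MOET calf 3213 had 11 such genes, against the other MOET adrenals. The 27 libraries that do not lie on the mean of their group had 0 to 2. The hypothalamus of IVP calf 5833 held 0.458% of its counts in 149 pituitary-enriched genes, against 0.0408% to 0.177% in the other hypothalami; without that calf the medians of the 27 genes were 0.59 in the adrenal and -0.56 in the hypothalamus.

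The order of the tissues differed between the origins. In IVP calves the mean level was highest in the adrenal for 25 of the 27 genes and in the hypothalamus for 2, and in MOET calves in the adrenal for 12 and in the hypothalamus for 15, so the highest tissue changed with origin for 13 genes. Member 3, for example, averaged 7254 CPM in the adrenal and 4714 CPM in the hypothalamus of IVP calves, and 4173 CPM in the adrenal and 8792 CPM in the hypothalamus of MOET calves. The rule used the levels in both tissues, so this order is a description of the chosen genes. The pituitary and the testicle were highest for no member in either origin, which follows in part from a rule that asks for higher levels in IVP adrenals and MOET hypothalami. Over the 8 libraries of each tissue, the pituitary was highest for 1 member and the testicle for 0, against 17.9% and 30.0% of broadly read genes. The lowest tissue was the testicle for 11, the pituitary for 8 and the hypothalamus for 8 genes in IVP calves, and in MOET calves it was the pituitary for 15, the testicle for 8, the hypothalamus for 2 and the adrenal for 2. Over the 8 libraries of each tissue it was the testicle for 12 and the pituitary for 10, against 16.3% and 31.9% of broadly read genes. It was the hypothalamus for 4 and the adrenal for 1, against 35.1% and 16.7%. The median over the 27 genes was 54.4 CPM in IVP and 48.1 CPM in MOET pituitaries, and 39.5 CPM in IVP and 43.8 CPM in MOET testicles. Over the 8 libraries of each tissue, the highest tissue mean was at most 4.82 times the lowest (member 14). The lowest count of any member in any library was 36, well above the floor of 3 counts (0.173 CPM in the smallest library).

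The pituitary and the testicle gave contrasts that the rule did not use, beyond a minimum level and the tissue ratio. In the pituitary, all 27 genes were tested and 5 passed an adjusted p of 0.05 with all 8 libraries (edgeR's quasi-likelihood test on TMM-scaled counts, Benjamini-Hochberg over 15807 genes): members 8, 21, 22 and 26 were higher in IVP calves and member 18 lower. That is 18.5% of the members. Over all genes, 15.3% passed, 7.51% with a higher and 7.78% with a lower level in IVP calves, so the share lay near the background. Without MOET calf 3213, whose library lies on the mean of the other 3, 0 of 27 passed, against a background of 2.37%, and 8 had an unadjusted p under 0.05, against 24.6% of genes. The calls also depended on other libraries, for the members and for all genes. Without IVP calf 3208, 0 members passed against 4.91% of all genes, and without IVP calf 3209, 1 passed against 8.24%. The estimates themselves changed little without calf 3213. With 8 libraries 10 members had an unadjusted p under 0.05, against 33.9%.

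The largest of these differences was 1.22-fold, for member 22. ENSBTAG00000047874 (member 22) had 96.6, 95.5, 87.6 and 98.8 CPM in IVP pituitaries and 75.6, 66.6, 68.7 and 89.1 CPM in MOET pituitaries. The highest MOET calf, 5932, lay above the lowest IVP calf, 5833. The fitted log2 fold change was 0.28 (SE 0.06, edgeR adjusted p = 0.0145), and without MOET calf 3213 it was 0.28 (SE 0.07, edgeR adjusted p = 0.0614). ENSBTAG00000001996 (member 18) had 70.2, 79.8, 71.5 and 76.7 CPM in IVP and 86.0, 73.5, 83.6 and 98.0 CPM in MOET pituitaries. Its groups overlapped through MOET calf 3217, and its log2 fold change was -0.25 (SE 0.07, edgeR adjusted p = 0.0411) with 8 libraries and -0.26 (SE 0.08, edgeR adjusted p = 0.102) without MOET calf 3213.

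The other 3 that passed with 8 libraries had log2 fold changes of 0.27 (member 8), 0.23 (member 21) and 0.28 (member 26), with edgeR adjusted p of 0.0238, 0.0264 and 0.0239, and of 0.0862, 0.0904 and 0.0785 without MOET calf 3213. Member 26 alone had no overlap between origins in the pituitary, with 61.7, 62.6, 56.2 and 64.6 CPM in IVP and 48.8, 44.7, 48.0 and 51.6 CPM in MOET calves; 8.59% of broadly read genes had none in that direction, and 3.74% had none in the other, where no member did. It was thus higher in every IVP than in every MOET library in the adrenal and the pituitary, and lower in the hypothalamus. The most negative estimate was that of member 16, -0.42 (SE 0.17, edgeR adjusted p = 0.110), which had 21.0, 21.8, 21.1 and 20.1 CPM in IVP and 26.9, 20.4, 33.0 and 26.5 CPM in MOET pituitaries.

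Over all 27 genes the pituitary log2 fold change ran from -0.42 to 0.28, with 16 above 0 and 11 below and a median of 0.07, beside 0.004 over all genes tested. Without MOET calf 3217, 11 were above 0 and the median was -0.025. The gene first by the rule and the gene with the most counts had small estimates there. ENSBTAG00000051076 (member 1) had 3.75, 6.25, 3.32 and 3.77 CPM in IVP and 3.82, 3.81, 3.17 and 4.67 CPM in MOET pituitaries. Apart from IVP calf 3209 the groups lay over each other, and the log2 fold change of 0.09 (SE 0.19) turned to -0.14 without that calf. ENSBTAG00000043560 (member 25) had 4549, 5063, 4978 and 5493 CPM in IVP and 5185, 4403, 4773 and 6237 CPM in MOET pituitaries, with a log2 fold change of -0.09 (SE 0.08).

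**Figure D4:**
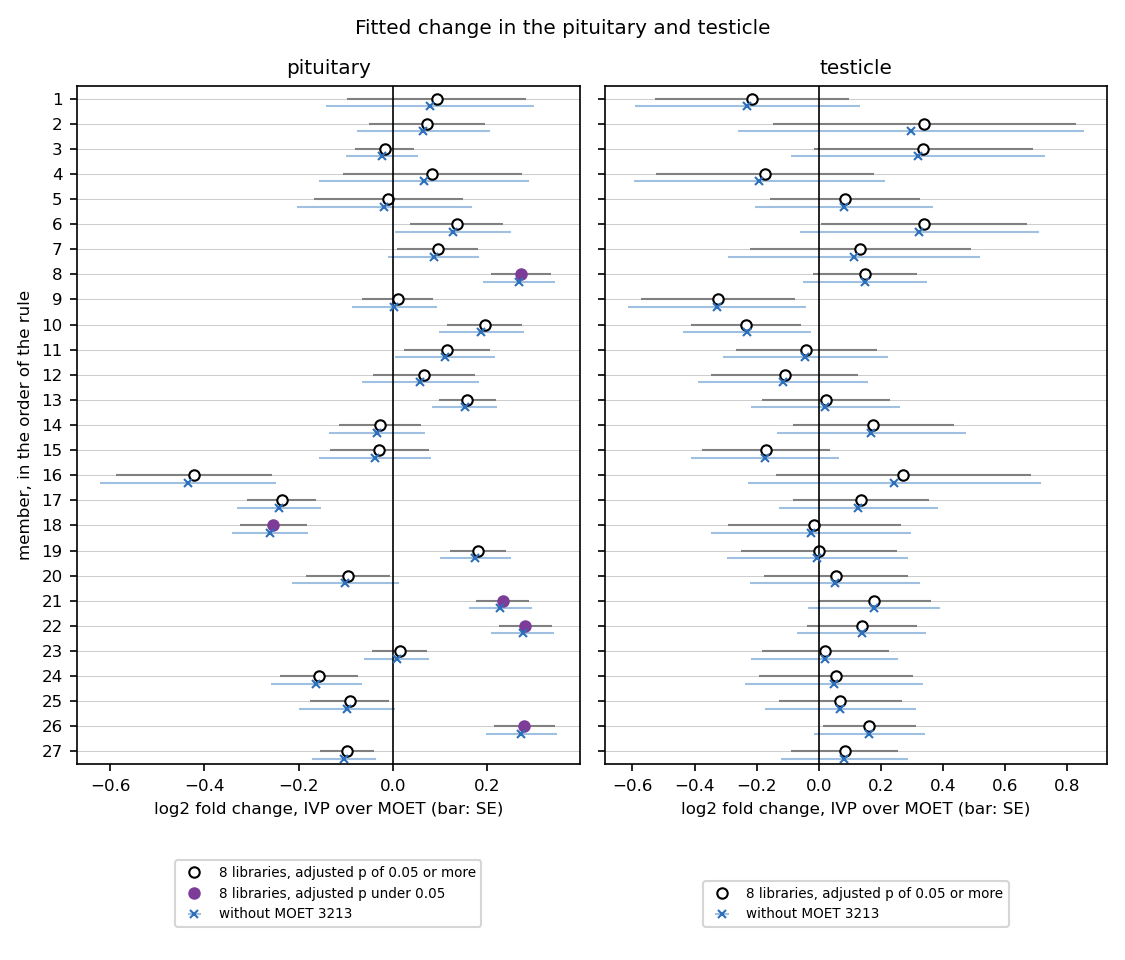
Log2 fold change of IVP over MOET from edgeR for each of the 27 genes (rows, in the order of the rule) in the pituitary and the testicle, with SE bars; circles are fits on 8 libraries (filled where the adjusted p was under 0.05) and crosses are fits without MOET calf 3213. In the pituitary 5 circles are filled, members 8, 18, 21, 22 and 26, and 0 of 27 genes passed without that calf; the testicle has no filled circle and wider bars.

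In the testicle no member passed, with or without MOET calf 3213 (edgeR's quasi-likelihood test, Benjamini-Hochberg adjusted p of at least 0.848 with 8 libraries; 0.00612% of 16352 genes passed, and 0.00605% of 16518 without that calf). No member had an unadjusted p under 0.05 in either fit, against 9.04% of genes with 8 libraries and 4.99% without that calf, and DESeq2 called 0 as well. By limma voom with quality weights 9 members passed, all lower in IVP calves, where 33.7% of all genes passed; ENSBTAG00000051076 (member 1) was among them at -0.50 (limma adjusted p = 0.0216) and ENSBTAG00000001996 (member 18) at -0.32 (limma adjusted p = 0.039). Log2 fold changes were -0.32 to 0.34, 19 above 0 and 8 below, with a median of 0.07 beside 0.03 over all genes. The median SE was 0.24, against 0.08 in the pituitary, so the testicular estimates were less precise. No member had separated groups in either direction, where 0.548% of broadly read genes were higher and 5.07% lower without overlap.

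IVP calf 3209 set the testicular spread. Its testicle was the highest of the IVP calves for 27 of 27 genes, against 30.9% of broadly read genes, and MOET calf 5932 was the highest of the MOET calves for 24, against 32.4%. The mean of log2(CPM + 0.5) over the 27 genes was 5.43, 6.03, 5.38 and 5.42 in IVP testicles 3208, 3209, 5833 and 5841 and 5.68, 5.58, 5.57 and 5.87 in MOET testicles 3213, 3217, 3218 and 5932. On column totals, 10 of the 27 genes were above 0 and 17 below in IVP over MOET, where 32.4% of broadly read genes were above 0. Without calf 3209 it was 0 above and 27 below, with a median of -0.25. Over broadly read genes the median was then -0.04, with 42.5% above 0. Leaving out the calf that was highest for every member lowers each IVP mean, so this fall was partly built in. Without MOET calf 5932 instead, 13 were above 0 and 14 below, with a median of -0.004. In the edgeR fit without calf 3209, 3 members were above 0 and 0 passed (lowest edgeR adjusted p = 0.144). For ENSBTAG00000001996 (member 18), the IVP testicles had 102, 171, 116 and 97.2 CPM and the MOET testicles 134, 119, 114 and 173 CPM. Calves 3209 and 5932 were the highest of their groups and nearly level. The 100 most counted genes held 31.0% of counts in IVP testicle 3209 and 29.0% in MOET testicle 5932, against 23.8% to 25.6% in the other 6, and their part in these levels was not tested.

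In the pituitary MOET calf 5932 was the highest of the MOET calves for 25 genes, but also for 83.8% of broadly read genes. IVP calf 3209 was the highest of the IVP calves in the adrenal for 26 genes and in the testicle for 27. In the pituitary it was so for 13, and in the hypothalamus for 10, while it was the lowest IVP calf there for 12. Members 10 and 11 were lowest in its hypothalamus, at 61.4 and 31.1 CPM, where the other IVP calves had 124 to 139 and 50.5 to 56.6 CPM. Members 18 and 23 were highest there, at 111 and 104 CPM, where the other IVP calves had 79.5 to 89.8 and 82.9 to 84.9 CPM.

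**Figure D5:**
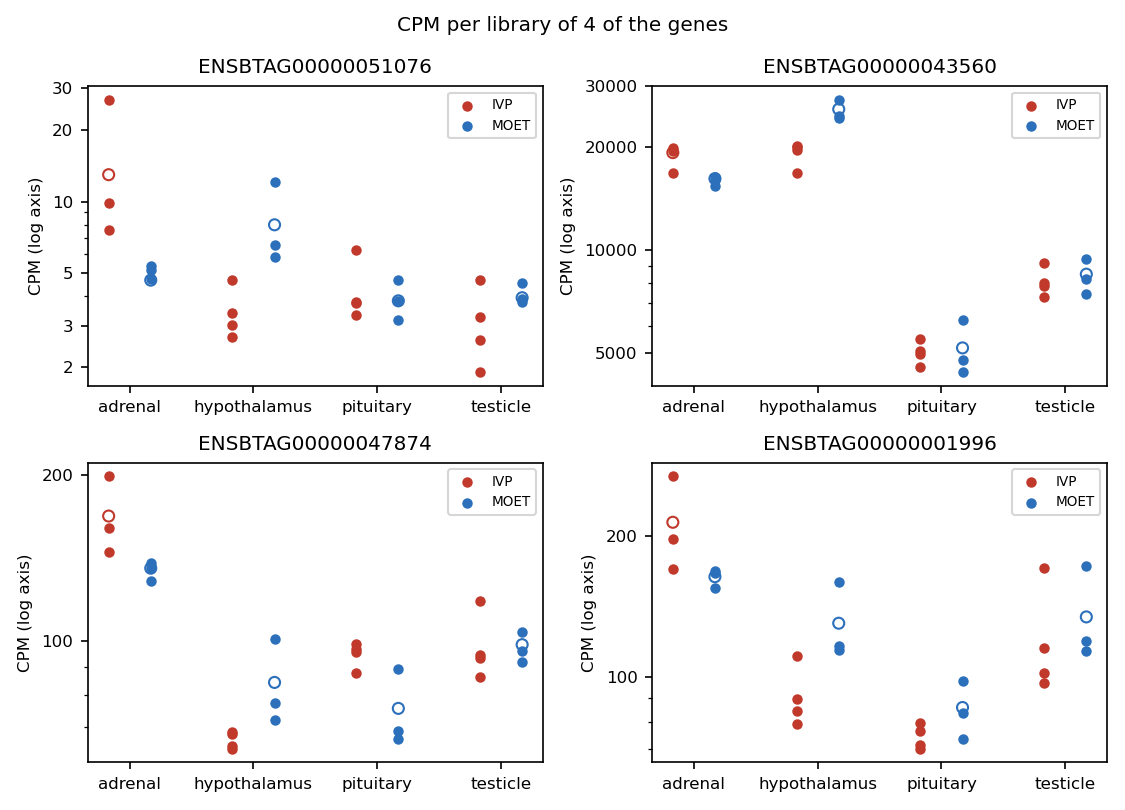
CPM in each library (log axis) of ENSBTAG00000051076, ENSBTAG00000043560, ENSBTAG00000047874 and ENSBTAG00000001996 in the 4 tissues, IVP left of MOET; open points are the 5 libraries on the geometric mean of the others of their group. IVP lies above MOET in each adrenal and below it in each hypothalamus, while the origins overlap in the pituitary and the testicle for all 4 genes.

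Tested directly, no member passed for a difference of the origin effect between the pituitary and the testicle (edgeR interaction on 16 libraries, Benjamini-Hochberg). Of 17345 genes 0.357% passed, and 0 of 17541 without calf 3213. The median SE of the members was 0.26, so a small difference could be missed. Member 10 had the smallest p, with a log2 difference of 0.45 (SE 0.20, unadjusted p = 0.0424, edgeR adjusted p = 0.410); it had 60.6, 71.9, 55.1 and 62.7 CPM in IVP and 52.8, 47.4, 50.9 and 58.4 CPM in MOET pituitaries, and 61.7, 76.7, 53.9 and 56.1 CPM in IVP and 81.3, 86.4, 79.3 and 75.2 CPM in MOET testicles. It was the 1 member with an unadjusted p under 0.05, where 11.4% of genes had one; without calf 3213 there were 0, against 7.18% of genes. By sign on column totals, 8 members were higher in IVP calves in both tissues, 12 higher in the pituitary and lower in the testicle, 2 the reverse and 5 lower in both. On that scale 63.4% of broadly read genes were above 0 in the pituitary and 32.4% in the testicle, so these signs partly follow the scaling. With TMM over 32 libraries, 18 members were above 0 in the pituitary and 16 in the testicle, against 55.0% and 60.6% of broadly read genes.

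Between calves of the same origin, the 27 genes varied together in the testicle, and in the pituitary little more than broadly read genes did. After the mean of each origin was removed, the median correlation over the 351 pairs of members was 0.82 across the 8 testicle libraries, against 0.15 over pairs of broadly read genes, and 0.75 across the 8 pituitary libraries, against 0.63. These are descriptions over few libraries that share their totals, and genes are not independent of each other. Without MOET calf 3213 the medians were 0.82 and 0.75. In the testicle the median was 0.52 without calf 3209, against 0.11 over broadly read genes, and in the pituitary 0.60 without calf 5932, against 0.53. Without calf 3217 the pituitary median was 0.72, against 0.69.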

How the data were processed

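RNA was measured in 4 tissues of 8 calves. Per the labels' protocols, samples passed at an RNA integrity above 7, poly(A) libraries without strand information gave pairs of 100-base reads (DNBSEQ), and SOAPnuke filtered them. STAR 2.7, HTSeq and bosTau9 are named in the submitters' processing notes; the sources used here do not give the annotation release. The authors deposited raw counts per gene. Without strand, reads of a gene and of an overlapping partner on its other strand cannot be told apart, and how such reads were counted is not given. The 27607 IDs include 0 that name no gene, and 0 columns belong to other series. Groups were taken from the labels, and replicates are separate animals by them.

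The members, gene lists and tests were chosen with earlier results of these data known; the lists needed symbols and were not used, and the naming rule was kept to 4 IDs. Genes were kept with filterByExpr (minimum count 10, minimum total 15) within a tissue, scaled with TMM and tested with edgeR 4.0.16 (glmQLFit, robust, and glmQLFTest), with Benjamini-Hochberg at 0.05. The SE is the log2 fold change over the root of F. The test was checked on simulated counts with known changes. Of 2-fold changes it recovered 79 of 96 in the pituitary, 38 of 99 in the testicle and 48 of 100 for their difference. The sign was wrong for 0, 1 and 3 of these changes, and false calls were 11, 6 and 6, in the same order. Smaller changes, such as those of the members called in the pituitary, were not simulated. Recovery in fits without the libraries on the mean of their group was not tested either, so it is not known. No 2 libraries were identical among 496 pairs. Each library was set against the geometric mean of the other 3 of its group, a comparison added after the data were seen, as were fits without the 5 libraries on that mean. The labels give each calf's number to its 4 tissues, so numbers pair tissues, not IVP with MOET. Alternatives used DESeq2 1.42.0, limma 3.58.1 and calves left out; other software was R 4.3.3, Python 3.11.15 and matplotlib 3.10.9. Precision is limited by 3 or 4 calves per group.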

Additional observations from a re-analysis of the deposited data

Results flagged for a closer look

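In 6 of the 48 groups of 4 libraries examined, 1 library stood apart from the other 3 by Dixon's criterion. Chance meets it in about 1 in 20 groups of 4 free values. The 48 groups share libraries and genes, so their count cannot be set against that rate. IVP calf 3209 stood apart in the testicle, with a mean log2(CPM + 0.5) of 6.03 over the 27 genes against 5.38 to 5.43 in the other IVP testicles, and with a summed share of 1.78% against 1.23% to 1.31%. The same calf had 6.25 CPM of ENSBTAG00000051076 in the pituitary, against 3.32 to 3.77 CPM. IVP calf 5833 had a summed share of 2.58% in the hypothalamus, against 3.07% to 3.11%, and 16767 CPM of ENSBTAG00000043560 there, against 19534 to 20074 CPM. IVP adrenal 3208 had a summed share of 3.49%, against 3.65% to 3.67%, in a group that holds the adrenal of calf 5833, whose counts lie on the mean of the others. In groups with such a library the criterion sees 3 free values and not 4.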

How the results depend on the processing

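The count of members called in the pituitary was 5 with 8 libraries, where 15.3% of all genes passed. It was 0 with library totals only (2.18% of all genes) and 0 with age as a covariate (1.68%). With all 32 libraries in 1 fit it was 0 (1.86%), and in limma voom with quality weights 11 (47.8%). With each calf left out the count ran from 0 to 5, and the share of all genes from 2.37% to 17.7%. It was 0 without IVP 3208 (4.91% of all genes) or MOET 3213 (2.37%) and 1 without IVP 3209 (8.24%). In the testicle it was 9 under voom with quality weights, all lower in IVP, where 33.7% of all genes passed. It was 0 in the other settings, where 0% to 1.8% of all genes passed. The number of members was 106 under TMM scaling. The calf as a replicate block (limma voom, consensus correlation -0.09) gave 0 members that passed for a difference between pituitary and testicle, as without it. Of all genes, 0.0404% passed with the block and 0.19% without it. With a calf left out the count was 0 to 1, where 0% to 0.536% of all genes passed. The 1 and the 0.536% were without calf 3209.

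Some signs changed. The median over the members in the testicle, 0.07, was -0.21 without IVP 3209. The median in the pituitary, 0.07, was -0.025 without MOET 3217. In the pituitary ENSBTAG00000051076 ran from -0.14 (without IVP 3209) to 0.18 with a calf left out. In the testicle ENSBTAG00000001996 was 0.0075 in DESeq2, 0.0073 with DESeq2 size factors, 0.0016 with age, -0.32 in voom and, with a calf left out, -0.34 (without IVP 3209) to 0.18 (without MOET 5932). ENSBTAG00000043560 was -0.054 on library totals, -0.088 in voom and -0.085 to 0.18 with a calf left out, and ENSBTAG00000047874 was -0.028 in voom and -0.057 to 0.24. The causes were not tested.

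Without the 5 libraries on the mean of their group, 2 of 15595 genes of the whole table were called in the adrenal, where all 8 gave 6068 of 15437. In the pituitary 378 of 15979 were called, where all 8 gave 2417 of 15807. Age cannot be told apart from calf 3213.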
